A study of Mus musculus with 9 samples.

Results

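The genes described here are 45 androgen-responsive genes, followed in RNA of the mouse seminal vesicle at 3 ages. They were chosen by name, as genes known to respond to androgens, with earlier results of these data known. Their shares beside those of all tested genes are therefore descriptions. They were found in the deposited table by matching its Ensembl identifiers to GENCODE mouse release M21. All 45 were found among the 53379 genes of the table, and all 45 were among the 16067 with enough counts to be tested. The study sequenced total RNA, extracted with TRIzol in a protocol labelled lncRNA-seq, from seminal vesicle of mice aged 3, 13 and 21 months. There were 3 libraries per age and 9 in all, and the title names changes of the gland during aging as the subject. The labels give no genotype, strain, diet or treatment for any group, and nothing in them ties a library to an animal, so that p-values measure the spread between these libraries. No castrated or hormone-treated group is part of the design, and the levels below are therefore levels of known androgen-responsive genes and not a measured response to androgen.

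Androgens such as testosterone and its reduced form dihydrotestosterone are steroid hormones that change transcription through a DNA element in or near their target genes. The seminal vesicle is an accessory gland of the male tract that depends on androgen to grow and to secrete, and it shrinks after castration. Many of the genes in the list are best known as androgen targets from human prostate cancer cells, where they serve lipid synthesis, protein secretion, transport and signalling, and several also respond to glucocorticoids, which act through the same kind of DNA element. Each is grouped below by what its product does.

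The androgen response element is a palindrome of a pair of 6-letter cores, AGAACA and TGTTCT with 3 free bases between them, and it reads the same on both strands. RefSeq promoter windows of GRCm38.p6, from 250 bases before to 50 bases after an annotated start, were matched for 33 of the 45 genes, with 53 windows in all. The 12 genes Aldh1a3, Ccnd1, Lman1, Maf, Ndrg1, Plpp1, Pmepa1, Slc26a2, Tnfaip8, Tpd52, Zbtb10 and Zbtb16 had no window in that table. A core, AGAACA or TGTTCT, stood in 9 of the 53 windows, against 6233 (19.0%) of the 32851 windows of all genes, and the 9 windows belonged to 6 genes. The whole element with 2 or fewer mismatches stood in 2 of the 53 (3.77%), against 1.84% of all windows. Both were windows of Sgk1, which has 6. The cores of an exact whole element are also counted as cores. The Sgk1 window at 21985854 to 21986153, with 2 mismatches, holds no core. An exact whole element stood in 3 of all 32851 windows, and 1 of these was a window of Sgk1, the gene of the list with the highest level in these libraries. The windows are shown for Sgk1, for Uap1 and Spdef, where a single core was found, and for Tmprss2, which stood far apart in 1 library and whose window holds no core. Capitals mark the cores, and the letters are the strand of the gene, 5′ to 3′. A match is a run of letters and does not show that a factor binds there.
Sgk1, chr10:21993640-21993939, plus strand: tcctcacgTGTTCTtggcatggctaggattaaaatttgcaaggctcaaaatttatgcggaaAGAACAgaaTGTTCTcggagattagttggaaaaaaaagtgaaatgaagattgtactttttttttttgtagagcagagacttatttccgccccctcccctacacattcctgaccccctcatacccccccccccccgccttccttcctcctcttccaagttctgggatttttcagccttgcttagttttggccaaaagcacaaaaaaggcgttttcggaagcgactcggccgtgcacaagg
Uap1, chr1:170174915-170175214, minus strand: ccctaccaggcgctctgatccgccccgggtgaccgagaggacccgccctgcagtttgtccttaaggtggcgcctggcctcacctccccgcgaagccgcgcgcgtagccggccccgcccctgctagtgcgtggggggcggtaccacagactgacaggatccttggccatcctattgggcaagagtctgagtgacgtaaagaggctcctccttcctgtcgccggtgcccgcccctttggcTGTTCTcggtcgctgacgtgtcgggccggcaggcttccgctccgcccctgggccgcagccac
Spdef, chr17:27728902-27729201, minus strand: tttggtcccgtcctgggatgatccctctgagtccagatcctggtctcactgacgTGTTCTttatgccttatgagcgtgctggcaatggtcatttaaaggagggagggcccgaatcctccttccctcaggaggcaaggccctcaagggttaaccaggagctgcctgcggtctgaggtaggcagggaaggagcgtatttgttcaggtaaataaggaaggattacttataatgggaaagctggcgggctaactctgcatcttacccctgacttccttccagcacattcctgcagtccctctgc
Tmprss2, chr16:97611146-97611445, minus strand: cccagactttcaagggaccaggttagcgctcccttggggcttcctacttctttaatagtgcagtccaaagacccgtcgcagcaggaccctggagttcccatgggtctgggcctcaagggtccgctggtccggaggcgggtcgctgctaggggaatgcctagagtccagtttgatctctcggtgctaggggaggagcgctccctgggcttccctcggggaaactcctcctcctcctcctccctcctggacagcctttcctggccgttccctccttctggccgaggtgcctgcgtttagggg

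The total count per library ran from 16536160 to 24791943. Levels are given as CPM, counts per 1e+06 counts, scaled by TMM, a factor per library that sets the bulk of genes level. The factor was 0.819 to 0.993 in the 6 libraries of 3 and 13 months and 1.58, 1.34 and 0.983 in 21-month replicates 1, 2 and 3. Of the 10 genes fixed as markers of seminal vesicle secretory epithelium all were counted at every age. They took 53.7 to 59.2% of counts at 3 and 13 months and 21.5%, 42.5% and 53.4% in the 21-month replicates. 21-month replicates 1 and 2 stood apart from the other 7. In replicate 1 the prostate genes Tgm4, Pbsn and Hoxb13 stood at 11113, 3998 and 67.6 CPM. The highest value of Tgm4 in another library was 0.579 CPM, and Hoxb13 was at 0 in the other 8. Of the 10 genes of the prostate list Spink1 and Apof were expressed in every library, and Spink1 was lower in replicate 1, at 257 CPM against 970 to 3026. In replicate 2 the 10 fat cell genes summed to 1985 CPM, against 19.1 to 43.7 at 3 months, 20.9 to 30.0 at 13 months and 25.6 in 21-month replicate 3, and in replicate 1 they were raised too, at 259 CPM. Differences at 21 against 3 months are therefore also given without replicate 1, and in places with replicate 3 alone. A single 21-month library has no spread of its own, and the test then takes it from the 3- and 13-month libraries.

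Per length of exon, Sgk1 was the most abundant member. Sgk1 is the serum and glucocorticoid regulated kinase, which controls ion channels and transporters. Averaged over the 9 libraries it stood at 140.2 TMM-scaled CPM per kb of exons, above 99.5% of tested genes. Plpp1, a phosphatase of lipid phosphates at the cell surface, followed at 91.4, Ank, a pyrophosphate exporter, at 52.9, Ccnd1, the gene of cyclin D1, at 43.5 and Abhd2, a lipid hydrolase, at 28.9 CPM per kb. At the lower end stood Elovl7 at 0.525, Inpp4b at 0.504 and Steap2 at 0.372 CPM per kb, the last above 12.9% of tested genes. Without 21-month replicate 1 Elovl7 was the lowest member, at 0.166 CPM per kb, and Steap2 stood at 0.339. Tmprss2, a membrane serine protease that is a classic androgen target of human prostate, stood at 3.95 CPM per kb over all 9 libraries, a mean that 21-month replicate 1 raises.

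**Figure D1:**
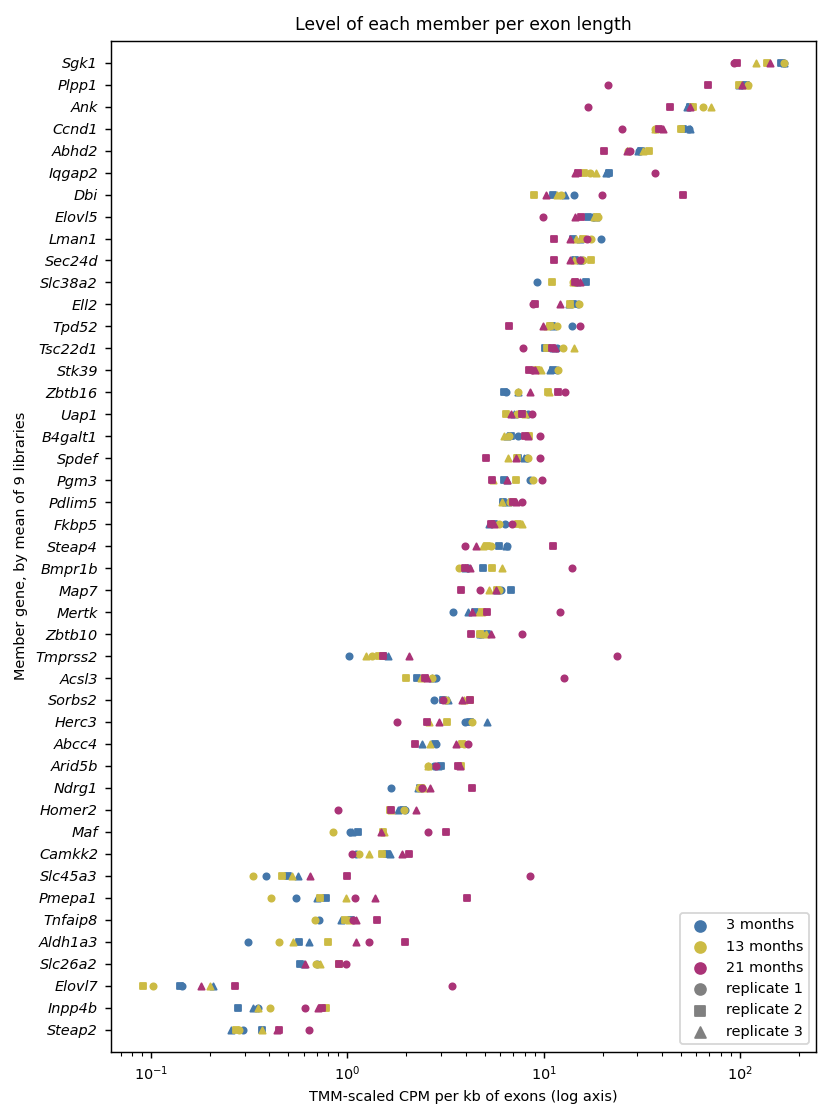
Level of each of the 45 genes in each of the 9 libraries, as TMM-scaled CPM per kb of exons on a log axis, with the genes ordered by their mean. Colours mark the age and symbols the replicate; Sgk1 lies highest at a mean of 140.2 and Steap2 lowest at 0.372 CPM per kb, though without 21-month replicate 1 Elovl7 is lowest at 0.166, and the single circles far to the right belong to 21-month replicate 1.

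None of the 45 genes passed the test at 13 against 3 months. The edgeR quasi-likelihood test with Benjamini-Hochberg adjustment over all 16067 genes called 0 of the 45, while it called 0.454% of all tested genes, 0.0436% as higher and 0.411% as lower. At an unadjusted p under 0.05 there were 2 members higher (Zbtb16 and Inpp4b) and 0 lower, or 4.44% and 0%, beside 3.49% and 3.75% of all tested genes. DESeq2 and limma-voom called 0 as well, beside 1.31% and 0.367% of all genes. The median log2 fold change of the 45 was 0.011, against 0.0077 over all tested genes, and the members ran from -0.40 to 0.67, with 24 of 45 (53.3%) above 0 beside 51.4% of all tested genes. The libraries of the 2 ages did not overlap for 3 genes that were higher and 3 that were lower at 13 months, or 6.67% each way, beside 8.18% and 9.33% of all tested genes. These were Ank, Inpp4b and Mertk on the higher side and Steap4, Iqgap2 and Ccnd1 on the lower side. The smallest adjusted p of a member was 0.542, for Zbtb16, over all alternatives no lower than 0.148.

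None passed at 21 against 3 months either, where the members were more spread. The edgeR test called 0 of the 45 beside 2.02% of all tested genes, 1.26% as higher and 0.766% as lower. At an unadjusted p under 0.05 there were 13 higher and 7 lower, or 28.9% and 15.6%, beside 14.1% and 10.3% of all tested genes. DESeq2 called 7 higher (Maf, Zbtb16, Aldh1a3, Slc45a3, Steap2, Inpp4b and Pmepa1) and 5 lower (Sgk1, Ell2, Stk39, Herc3 and Ccnd1), beside 9.35% of all genes, with no adjusted p for 2 members, Elovl7 and Tmprss2. limma-voom called 0, beside 0.958%. Without 21-month replicate 3 edgeR called 14 of the 45 members, 9 higher and 5 lower, beside 14.0% of all genes. The 9 were Maf, Zbtb16, Elovl7, Dbi, Aldh1a3, Slc45a3, Mertk, Pmepa1 and Tmprss2, and the 5 were Sgk1, Ell2, Map7, Herc3 and Ccnd1. That fit leaves replicates 1 and 2 at 21 months, with the prostate and fat cell transcripts. With all 9 libraries the median log2 fold change of the 45 was 0.20, against 0.0074 over all tested genes. Without 21-month replicate 1 it was 0.037, against 0.000803 over all genes. Without that library edgeR called Aldh1a3 and Pmepa1 higher and Iqgap2 lower, beside 2.90% of all genes. Libraries did not overlap for 11 genes that were higher and 8 that were lower at 21 months, or 24.4% and 17.8%, beside 14.8% and 14.7% of all tested genes. These shares, and those at an unadjusted p, include 21-month replicate 1. Without it 9 members changed the sign of their log2 fold change. Scaling by library totals alone shifts the fold changes of all genes, by a median of 0.58 (log2) at this comparison, and the values are relative to TMM. With library totals alone 24 of the 45 members were called higher and 0 lower, beside 34.6% of all genes. There 11 members with a negative log2 fold change had a positive one. These 11 were Tsc22d1, Spdef, Ell2, Elovl5, Abhd2, Lman1, Sec24d, Tpd52, Stk39, Map7 and Homer2.

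At 21 against 13 months the edgeR test again called 0 of the 45, beside 0.00622% of all tested genes, which is 1 gene. There were 9 members higher and 2 lower at an unadjusted p under 0.05, or 20% and 4.44%, beside 10.1% and 5.64% of all tested genes. DESeq2 called 2 higher (Aldh1a3 and Pmepa1) and 1 lower (Ell2), beside 2.66% of all genes, and limma-voom called 0, beside 0.0187%. Without 21-month replicate 3 edgeR called 7 of the 45 members, beside 7.44% of all genes. The median of the 45 was 0.16, against 0.0047 over all genes, and -0.010 without 21-month replicate 1. The comparisons share libraries, 3 months between the first pair and 21 months between the last, and are therefore not independent of each other. Libraries did not overlap for 8 genes that were higher and 4 that were lower at 21 months, or 17.8% and 8.89%, beside 7.99% and 8.25% of all tested genes. These shares include 21-month replicate 1, and without it 8 members changed the sign of their log2 fold change. With library totals alone, which move the median of all genes by 0.52 here, 8 of the 45 members were called higher, beside 5.07% of all genes.

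**Figure D2:**
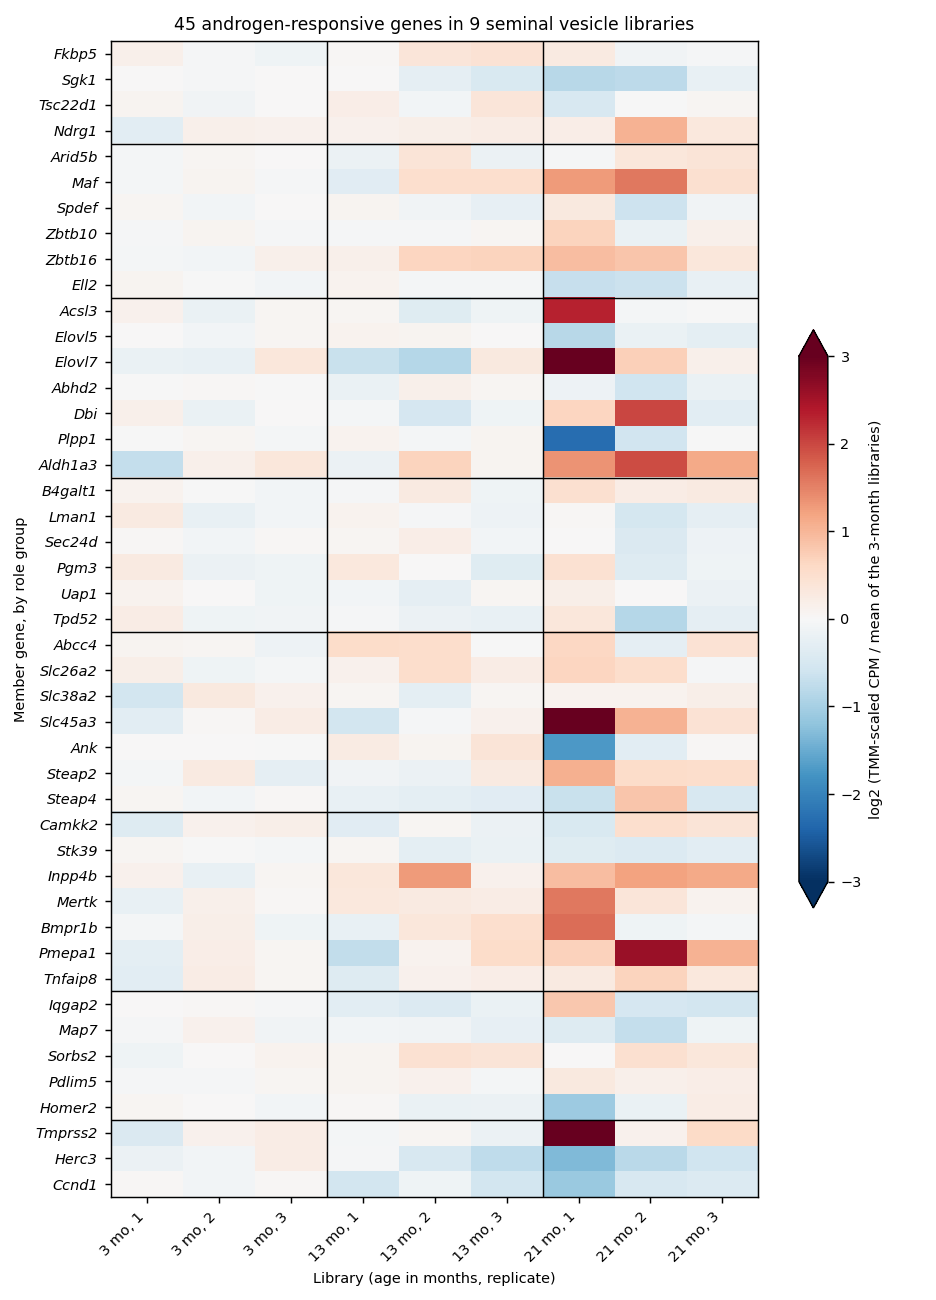
Colour shows log2 of the TMM-scaled CPM of each gene in each library over its mean in the 3-month libraries, with genes in rows by role and libraries in columns by age and replicate. The 3-month and 13-month columns are pale, and the deepest colours, past the ends of the scale at 3, lie in 21-month replicate 1 for Tmprss2, Slc45a3 and Elovl7.

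The regulators of steroid receptor action and stress signalling held no gene called in the main edgeR test. Fkbp5 is an Hsp90 cochaperone of steroid receptors and is itself induced by them. Its TMM-scaled CPM values were 60.5, 53.0 and 50.2 at 3 months in replicates 1 to 3. They were 56.0, 69.8 and 73.4 at 13 months, then 65.6, 50.8 and 53.1 at 21 months. The 3 ages overlapped. Its log2 fold change was 0.28 ± 0.14 (SE) at 13 against 3 months (95% interval -0.039 to 0.61) and 0.051 ± 0.14 at 21 against 3 months (-0.27 to 0.37). Without 21-month replicate 1 the latter was -0.066. Sgk1 (chromosome 10, 21882184 to 21999903) stood at 828, 801 and 823 CPM at 3 months, 826, 678 and 597 at 13 months, then 459.9, 473 and 703 at 21 months. Every 21-month library lay below every 3-month library. The log2 fold change of Sgk1 at 21 against 3 months was -0.58 ± 0.19 (adjusted p = 0.117, 95% interval -1.02 to -0.15). It was -0.47 without replicate 1, -0.22 with replicate 3 alone and -0.050 with library totals alone. Sgk1 was called lower with DESeq2 and by edgeR without 21-month replicate 3. Ndrg1, a gene of stress and hypoxia responses, ran from 11.1 to 15.5 CPM at 3 months and from 15.9 to 28.6 at 21 months, with the highest value in replicate 2, the library with fat cell transcripts. Tsc22d1, a transcription regulator first found as a TGF-beta target, overlapped between all ages, from 70.5 to 129 CPM.

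Among transcription factors, Maf and Zbtb16 had the largest differences and neither passed the test. Maf (chromosome 8, 115682942 to 115707794), a leucine zipper factor, stood at 8.48, 9.31 and 8.65 CPM at 3 months, 6.996, 12.6 and 12.6 at 13 months, then 21.2, 26.2 and 12.3 at 21 months. Its 21-month libraries lay above the 3-month libraries, and replicate 3 lay within the 13-month range. The log2 fold change of Maf at 21 against 3 months was 1.18 ± 0.29 (adjusted p = 0.0659), 1.13 without replicate 1 and 0.48 with replicate 3 alone (adjusted p = 0.609). Zbtb16, the zinc finger repressor PLZF, was 33.2 to 39.2 CPM at 3 months, 39.2 to 56.6 at 13 months and 44.9 to 67.7 at 21 months. Zbtb16 was higher at 21 than at 3 months by 0.72 ± 0.19 on the log2 scale (adjusted p = 0.0702), and by 0.61 without replicate 1. Macrophages also express Maf, and the 10 leukocyte markers, all counted at 21 months and 9 of them at 3 months, summed to 55.5 to 58.9 CPM at 3 months, 68.5 to 98.7 at 13 months and 123 to 201 at 21 months. The part of leukocytes in the Maf values was not tested. Ell2 (chromosome 13, 75706757 to 75772364), an elongation factor of RNA polymerase II, stood at 147, 139 and 132 CPM at 3 months, 149, 134 and 134 at 13 months, then 86.6, 89.3 and 119 at 21 months. All 21-month libraries lay below the other 6. Its log2 fold change was -0.51 ± 0.14 at 21 against 3 months (adjusted p = 0.0741), -0.42 in the former without replicate 1, and -0.50 ± 0.14 at 21 against 13 months (adjusted p = 0.197). With library totals alone it was 0.043 and -0.012. Arid5b, a DNA-binding coactivator, ran from 25.8 to 38.1 CPM over the 9 libraries, Spdef, an ETS factor of secretory epithelium, from 11.7 to 22.1 and the zinc finger gene Zbtb10 from 31.5 to 57.3. The last of these had its highest value in 21-month replicate 1.

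Of the genes of lipid and retinoid metabolism none was called in the main edgeR test. At 21 against 3 months 4 of 7 had a log2 fold change above 0, beside 50.7% of all tested genes. Of these Acsl3 was below 0 without 21-month replicate 1. Aldh1a3, which makes retinoic acid from retinal, had the smallest adjusted p of the 45 and is described for that reason, chosen after its values were seen. Aldh1a3 (chromosome 7, 66390890 to 66427517) stood at 1.43, 2.61 and 2.95 CPM at 3 months, 2.06, 3.68 and 2.45 at 13 months, then 5.95, 9.03 and 5.10 at 21 months. Its raw counts were 25 to 43, 35 to 71 and 113 to 252. Every 21-month library of Aldh1a3 lay above the other 6. Aldh1a3 was higher at 21 than at 3 months by 1.53 ± 0.34 on the log2 scale (adjusted p = 0.0538), by 1.62 without replicate 1 (adjusted p = 0.0482), where it was called, and by 1.15 with replicate 3 alone (adjusted p = 0.301). Over its 20 alternatives the adjusted p ran from 0.00141 to 0.301 and the log2 fold change from 1.15 to 2.13. Elovl5, which elongates polyunsaturated fatty acids, was 59.1 to 67.0 CPM at 3 and 13 months and 34.9, 54.8 and 50.7 at 21 months, below all 6 younger libraries. Elovl5 differed at 21 against 3 months by -0.42 ± 0.15 (adjusted p = 0.143), -0.24 without replicate 1 and 0.14 with library totals alone. Abhd2 stood at 324, 332 and 321 CPM at 3 months, 285, 363 and 340.1 at 13 months, then 292, 215 and 282 at 21 months. Its 21-month libraries lay below those of 3 months and overlapped those of 13 months. Abhd2 differed at 21 against 3 months by -0.31 ± 0.15 (adjusted p = 0.232), or -0.39 without replicate 1.

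Genes of the secretory pathway and of sugar nucleotide synthesis spanned the narrowest range of log2 fold changes of the 8 groups. None was called in the main edgeR test. At 13 against 3 months the 6 ran from -0.14 to 0.065 on the log2 scale, and at 21 against 3 months from -0.24 to 0.32. Lman1, the cargo receptor that carries glycoproteins out of the endoplasmic reticulum, stood at 172, 124 and 135 CPM at 3 months, 154, 140.2 and 129.7 at 13 months, then 147, 99.4 and 119.8 at 21 months. The 3 ages overlapped, and the log2 fold change at 21 against 3 months was -0.24 ± 0.17 (adjusted p = 0.418), or -0.39 without replicate 1. B4galt1, the galactosyltransferase of the Golgi, stood at 31.3, 28.9 and 27.7 CPM at 3 months, 28.3, 35.5 and 26.6 at 13 months, then 40.6, 34.0 and 35.2 at 21 months. Each 21-month library of B4galt1 lay above those of 3 months. Its difference was 0.32 ± 0.13 (adjusted p = 0.169), or 0.24 without replicate 1. Uap1, the last enzyme on the way to UDP-N-acetylglucosamine, had a 95% interval of -0.28 to 0.30 on the log2 scale at 21 against 3 months, around 0.011. Pgm3, an enzyme upstream of Uap1, ran from 24.4 to 43.8 CPM and Tpd52, of vesicle traffic, from 49.6 to 115, both with the highest value in 21-month replicate 1 and the lowest in 21-month replicate 2. Sec24d, of the coat of vesicles that leave the endoplasmic reticulum, ran from 71.3 to 110 CPM. The exons of Pgm3 share 1270 bases with Dop1a on the opposite strand, and the strand setting of the counting is not given in the sources used here.

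Of the transporters and metalloreductases the sulfate transporter Slc26a2 (7.13 to 12.1 CPM), the amino acid transporter Slc38a2 (81.8 to 146) and the efflux pump Abcc4 (14.1 to 26.3) overlapped between 3 and 21 months. Steap2, a metalloreductase first described in prostate, was 3.09 to 4.45 CPM at 3 and 13 months and 7.75, 5.41 and 5.33 at 21 months, with every 21-month library above the other 6. Its difference at 21 against 3 months was 0.74 ± 0.23 (adjusted p = 0.0982), and 0.54 without replicate 1. Steap4, a relative induced in fat and in inflammation, was 18.8 to 20.6 CPM at 3 months, 15.6 to 17.1 at 13 months and 12.5, 35.3 and 14.2 at 21 months. The high value of Steap4 lies in replicate 2, and the other 21-month libraries lie below all younger ones. Its log2 fold change at 21 against 3 months was 0.058 ± 0.33, and -0.57 ± 0.12 without replicate 2 (adjusted p = 0.0726).

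Kinases, phosphatases and receptors included no gene called in the main edgeR test. At 21 against 3 months 6 of 7 had a log2 fold change above 0, beside 50.7% of all tested genes. Of these Bmpr1b was below 0 without 21-month replicate 1. Inpp4b (chromosome 8, 81342556 to 82127914), a phosphatase that removes a phosphate from PI(3,4)P2, is named after its values were seen. It stood at 4.58, 3.60 and 4.32 CPM at 3 months, 5.29, 10.1 and 4.58 at 13 months, then 7.90, 9.68 and 9.21 at 21 months. Its libraries at 3 months lay below all others, with 13-month replicate 3 just above them. Inpp4b was higher at 21 than at 3 months by 1.10 ± 0.28 (adjusted p = 0.0702), by 1.18 without replicate 1 and by 1.14 with replicate 3 alone, and the adjusted p ran from 0.00949 to 0.273 over its 20 alternatives. At 13 against 3 months it was 0.67 ± 0.28, or 0.24 without 13-month replicate 2. Pmepa1 (chromosome 2, 173224458 to 173276533), an inhibitor of TGF-beta signalling, stood at 2.69, 3.81 and 3.43 CPM at 3 months, 1.999, 3.58 and 4.85 at 13 months, then 5.35, 20.0 and 6.77 at 21 months. The 21-month libraries lay above the other 6, with replicate 2 at 2.96 times the next library. Pmepa1 was higher by 1.70 ± 0.50 at 21 against 3 months (adjusted p = 0.0924). The value was 2.03 without replicate 1 (adjusted p = 0.0480), where it was called, 0.88 without replicate 2 (adjusted p = 0.211) and 1.04 with replicate 3 alone.

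Stk39 is the kinase SPAK, which switches on cation-chloride cotransporters. It stood at 58.2, 55.3 and 53.7 CPM at 3 months, 58.4, 45.7 and 48.3 at 13 months, then 43.4, 42.0 and 44.9 at 21 months, below all 6 younger libraries. Stk39 differed at 21 against 3 months by a log2 fold change of -0.36 ± 0.11 (adjusted p = 0.0982), -0.36 without replicate 1, -0.31 with replicate 3 alone and 0.22 with library totals alone. Camkk2, a kinase upstream of AMPK, overlapped between the ages at 11.5 to 22.5 CPM. Tnfaip8, a regulator of cell death, was 7.39 to 10.7 CPM at 3 months and 11.0 to 14.6 at 21 months.

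Of the cytoskeleton and scaffold genes none was called with all libraries and TMM. Iqgap2 was called lower without 21-month replicate 1, Map7 lower without replicate 3, and Sorbs2 and Pdlim5 higher with library totals alone. Iqgap2 (chromosome 13, 95627177 to 95891922), a scaffold of actin and small GTPases, stood at 123, 125 and 119.9 CPM at 3 months, 99.1, 92.7 and 107 at 13 months, then 214, 86.4 and 83.5 at 21 months. 21-month replicate 1 held the highest value of the 9 and the other 21-month libraries the lowest. The log2 fold change of Iqgap2 at 21 against 3 months was 0.065 ± 0.31 with all libraries (adjusted p = 0.918) and -0.52 ± 0.10 without replicate 1 (adjusted p = 0.0344), where 2.90% of all tested genes were called. It was -0.55 ± 0.13 with replicate 3 alone (adjusted p = 0.134) and 0.75 with library totals alone. Map7, which binds microtubules, stood at 48.2, 54.3 and 46.0 CPM at 3 months, 47.0, 46.1 and 41.7 at 13 months, then 37.6, 30.1 and 45.6 at 21 months. The 21-month libraries lay below those of 3 months, with a log2 fold change of -0.39 ± 0.15 (adjusted p = 0.151), -0.39 without replicate 1 and -0.12 with replicate 3 alone. It was called lower without replicate 3 (adjusted p = 0.0301). Pdlim5, a scaffold of the actin cytoskeleton, ran from 54.3 to 68.8 CPM, and its 21-month libraries lay above the other 6. Its difference at 21 against 3 months was 0.21 ± 0.094 (adjusted p = 0.207). Sorbs2, an adaptor of actin filaments, ran from 76.9 to 118 CPM, and Homer2, a synaptic type scaffold, from 11.3 in 21-month replicate 1 to 28.1 in 21-month replicate 3.

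Ccnd1 and Herc3 had log2 fold changes below 0 at both older ages, and neither passed the test. Ccnd1 (chromosome 7, 144929931 to 144939925), whose cyclin D1 drives entry into the cell cycle, stood at 261, 243 and 263 CPM at 3 months, 174, 236 and 173 at 13 months, then 119, 183 and 192 at 21 months. Every library of the older ages lay below every 3-month library. The log2 fold change of Ccnd1 was -0.40 ± 0.19 at 13 against 3 months (adjusted p = 0.729) and -0.63 ± 0.19 at 21 against 3 months (adjusted p = 0.0983). It was -0.44 without replicate 1, -0.41 with replicate 3 alone and -0.096 with library totals alone. The 6 markers of dividing cells summed to 85.5 to 113 CPM at 3 months, 7.79 to 17.4 at 13 months and 18.5 to 34.4 at 21 months, and their part in the Ccnd1 values was not tested. In bulk RNA fewer cells of a type and less RNA per cell cannot be told apart. Herc3, a ubiquitin ligase, was 36.3 to 47.2 CPM at 3 months, 23.9 to 39.4 at 13 months and 16.2 to 26.7 at 21 months, with a log2 fold change of -0.88 ± 0.22 at 21 against 3 months (adjusted p = 0.0695), -0.70 without replicate 1 and -0.35 with library totals alone. The exons of Ccnd1 share 1100 bases with a gene on the opposite strand.

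In 21-month replicate 1, 6 of the 45 genes stood more than 2-fold above every other library and 2 stood more than 2-fold below. These are 13.3% and 4.44% of the members, beside 1.75% and 1.49% of all tested genes. Replicate 1 was the highest of the 9 libraries for 18 members, or 40.0%, beside 16.8% of all tested genes, and the lowest for 11, or 24.4%, beside 19.3%. It is also the library with the prostate transcripts, which that tissue makes under androgen control, and the part of prostate tissue in these values was not tested. Tmprss2 (chromosome 16, 97564682 to 97611195) stood at 7.44, 11.1 and 11.8 CPM at 3 months, 9.76, 10.5 and 9.04 at 13 months, then 174, 11.1 and 15.1 at 21 months. Replicate 1 was 11.5 times the next library. The log2 fold change of Tmprss2 at 21 against 3 months was 2.72 ± 0.90 (adjusted p = 0.117), and without replicate 1 it was 0.38 ± 0.21 (adjusted p = 0.294). Slc45a3 (chromosome 1, 131962967 to 131982969), whose product prostein is a prostate marker in human tissue, stood at 1.37, 1.76 and 1.99 CPM at 3 months, 1.18, 1.66 and 1.87 at 13 months, then 30.4, 3.55 and 2.30 at 21 months. All 21-month libraries of Slc45a3 lay above the other 6. Its difference at 21 against 3 months was 2.83 ± 0.88 (adjusted p = 0.102), and 0.79 ± 0.30 without replicate 1 (adjusted p = 0.152). Elovl7, an elongase of saturated fatty acids, was nearly absent elsewhere, with 7 to 30 counts in the other 8 libraries and 369 in replicate 1. It stood at 0.573, 0.564 and 0.823 CPM at 3 months, 0.412, 0.363 and 0.801 at 13 months, then 13.6, 1.08 and 0.722 at 21 months. Its difference at 21 against 3 months was 2.98 ± 1.05 with that library and 0.48 ± 0.42 without it.

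Acsl3, Bmpr1b and Mertk followed the same course, with levels in 21-month replicates 2 and 3 close to those of younger libraries. Acsl3, which activates long-chain fatty acids, stood at 12.3, 9.88 and 11.7 CPM at 3 months, 11.8, 8.71 and 10.4 at 13 months, then 55.7, 10.8 and 11.2 at 21 months. Its log2 fold change at 21 against 3 months was 1.20 ± 0.56 (adjusted p = 0.222), and -0.040 ± 0.16 without replicate 1. The BMP receptor gene Bmpr1b stood at 24.7, 29.2 and 23.7 CPM at 3 months, 22.1, 32.6 and 36.5 at 13 months, then 83.2, 23.7 and 25.01 at 21 months. Here too only replicate 1 lay outside the range of the younger libraries, and the difference of 0.77 ± 0.44 at 21 against 3 months was -0.083 without it. Mertk, a receptor by which cells take up dying cells, stood at 14.9, 19.4 and 17.9 CPM at 3 months, 21.5, 21.0 and 20.3 at 13 months, then 52.3, 22.4 and 18.6 at 21 months. Mertk differed at 21 against 3 months by 0.84 ± 0.33 (adjusted p = 0.159), and 0.24 ± 0.14 without replicate 1. The exons of Acsl3 share 244 bases with Utp14b on the same strand.

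The members that were lowest in replicate 1 by more than 2-fold were Plpp1 and Ank, which follow Sgk1 at the top of the list by level per length. Plpp1 (chromosome 13, 112800792 to 112867894) stood at 179, 189 and 174 CPM at 3 months, 194, 174 and 192 at 13 months, then 37.3, 121 and 179.9 at 21 months. Replicate 3 lay within the range of the younger libraries, replicate 2 below it and replicate 1 lower still. Plpp1 differed at 21 against 3 months by a log2 fold change of -0.68 ± 0.42 (adjusted p = 0.338), -0.26 without replicate 1 and -0.0058 with replicate 3 alone. Ank (chromosome 15, 27466677 to 27594909) stood at 199, 201 and 196 CPM at 3 months, 235, 209 and 257 at 13 months, then 60.6, 159 and 202 at 21 months. Its 13-month libraries lay above the other 6, and the log2 fold change was 0.24 ± 0.34 at 13 against 3 months (adjusted p = 0.934) and -0.50 ± 0.34 at 21 against 3 months (adjusted p = 0.388). The latter was 0.031 with replicate 3 alone. The seminal vesicle secretory markers showed the same order over the 21-month libraries, with sums from 135818 CPM in replicate 1 to 543267 in replicate 3. The sums were 630425 to 669138 at 3 months and 541283 to 722523 at 13 months. Replicate 3 thus lay below every 3-month library. Among the 13-month libraries it lay just above the lowest, replicate 2 at 541283, and below the others. The markers of luminal epithelium had a different order, with sums of 894, 544 and 895 CPM in 21-month replicates 1, 2 and 3. The part of seminal vesicle epithelium in the Plpp1 and Ank values was not tested.

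**Figure D3:**
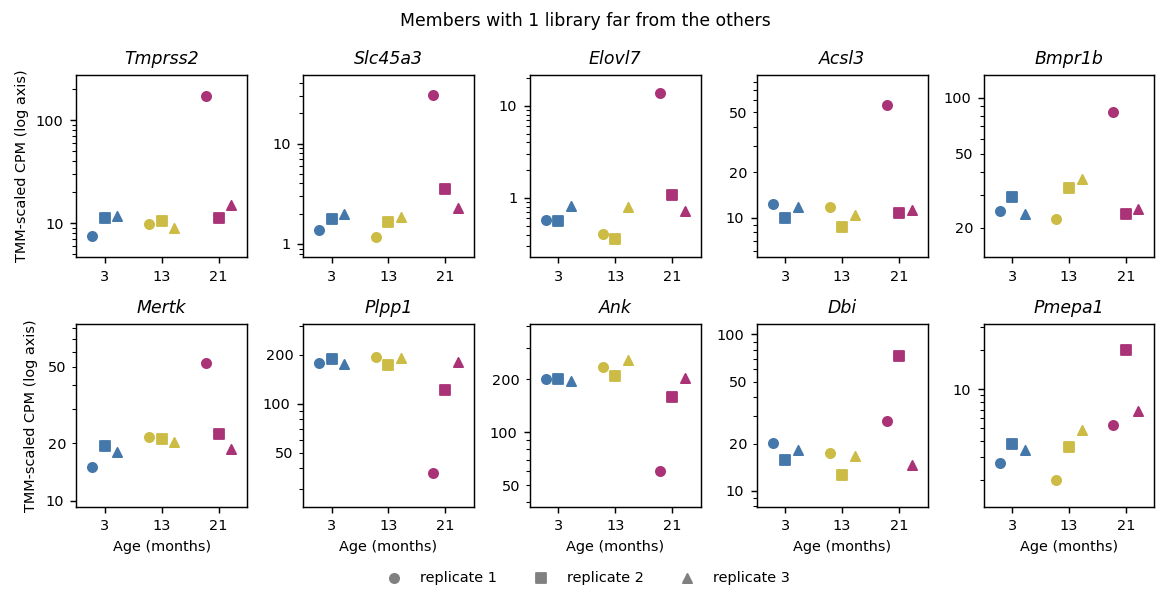
TMM-scaled CPM on log axes against age in months for 10 members, with a point per library and a symbol per replicate. The 21-month circle, replicate 1, lies far above the other points for Tmprss2, Slc45a3, Elovl7, Acsl3, Bmpr1b and Mertk and far below for Plpp1 and Ank, and the 21-month square, replicate 2, lies highest for Dbi and Pmepa1.

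In 21-month replicate 2, which holds fat cell transcripts, Dbi and Pmepa1 stood more than 2-fold above every other library. They are 2 of 45 members, or 4.44%, beside 2.13% of all tested genes. Dbi, the acyl-CoA binding protein, stood at 20.3, 15.9 and 18.3 CPM at 3 months, 17.4, 12.7 and 16.7 at 13 months, then 28.2, 73.1 and 14.6 at 21 months. Replicate 3 lay within the range of the younger libraries. Its log2 fold change at 21 against 3 months was 1.09 ± 0.46 (adjusted p = 0.186), 0.25 without replicate 2 and -0.31 with replicate 3 alone, so that the direction rests on replicates 1 and 2, the libraries with raised fat cell transcripts. The part of fat cells in the Dbi and Pmepa1 values was not tested.

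**Figure D4:**
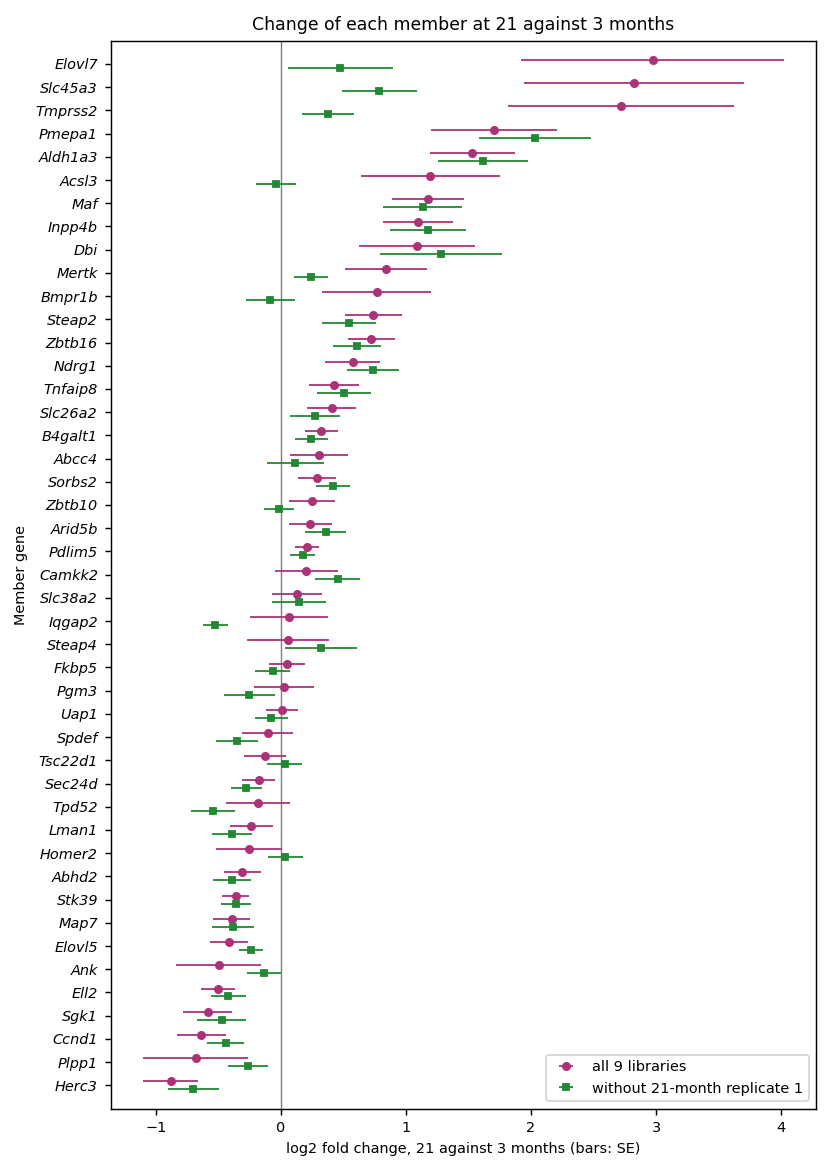
Log2 fold change of each member at 21 against 3 months with its SE as bars, for the fit to all 9 libraries (circles) and without 21-month replicate 1 (squares), ordered by the former. Elovl7, Slc45a3 and Tmprss2 move from 2.98, 2.83 and 2.72 to 0.48, 0.79 and 0.38, while Aldh1a3, Maf and Inpp4b hardly move.

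In 21-month replicate 3, whose spread cannot be measured and which had neither the prostate nor the raised fat cell transcripts, 11 members stood above all 6 younger libraries and 9 below. These are 24.4% and 20.0%, beside 14.2% and 13.7% of all tested genes. The 11 were Ndrg1, Zbtb10, Aldh1a3, Slc45a3, Steap2, Camkk2, Pmepa1, Tnfaip8, Pdlim5, Homer2 and Tmprss2, and the 9 were Ell2, Elovl5, Abhd2, Lman1, Sec24d, Tpd52, Steap4, Stk39 and Iqgap2. With replicate 3 as the only 21-month library 0 members were called at 21 against 3 months, beside 0.345% of all tested genes, with a median of 0.031. Every 21-month library lay above all 6 younger ones for 6 members, Aldh1a3, Slc45a3, Steap2, Pmepa1, Tnfaip8 and Pdlim5, or 13.3%, beside 4.85% of all tested genes. The spread within an age also differed. The median coefficient of variation of the members was 9.06% at 3 months, 13.8% at 13 months and 25.03% at 21 months, beside 11.7%, 14.3% and 18.9% over all tested genes.

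Other lists of hormone-responsive genes showed few calls after adjustment over all tested genes. Of 58 other tested androgen-responsive genes 0 were called, with medians of 0.0019, -0.059 and 0.026 at 13 against 3, 21 against 3 and 21 against 13 months, and at 21 against 3 months 8 (13.8%) were higher and 10 (17.2%) lower at an unadjusted p under 0.05, beside 14.1% and 10.3% of all tested genes. Of 20 genes known to respond to glucocorticoids 1 rose at 21 against 3 months and 0 fell, beside 1.26% and 0.766% of all tested genes. At an unadjusted p under 0.05 there were 9 higher and 1 lower, beside 14.1% and 10.3%. Their median was 0.71 with all libraries, 0.40 without 21-month replicate 1, 0.37 without replicate 2 and 0.21 with replicate 3 alone. The 1 gene was Cdkn1a, of the cell cycle inhibitor p21, at 1.13 ± 0.43 CPM at 3 months and 4.59 ± 2.56 at 21 months (SD, n = 3; log2 fold change 2.01, adjusted p = 0.0497 by edgeR). Its highest library was 21-month replicate 2, at 7.53 CPM, with 3.43 and 2.80 in replicates 1 and 3. Without 21-month replicate 2 edgeR did not call Cdkn1a (1.46, adjusted p = 0.0920), and without replicate 1 it did (2.19, adjusted p = 0.0368). With all libraries limma-voom did not call Cdkn1a (adjusted p = 0.0870), and DESeq2 did (adjusted p = 0.00096). Its log2 fold change with replicate 3 alone was 1.29. Exons shared with another gene were also annotated for Ank, Ell2, Homer2, Maf, Map7, Ndrg1, Plpp1, Slc45a3, Sorbs2 and Tnfaip8, whose counts are uncertain to that extent.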

How the data were processed

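RNA of 9 seminal vesicle libraries, 3 each at 3, 13 and 21 months, was counted per gene, and the deposited values are raw counts, not normalized. HISAT2 and featureCounts are named with GRCm38 and mm10 in the submitters' processing notes; versions, the strand setting and the authors' own test are not given in the sources used here. Of 53379 identifiers 53274 matched GENCODE M21, and the other 105 held 0.00839% of counts. Genes were kept by filterByExpr (minimum count 10, minimum total 15), scaled by TMM and tested with the edgeR 4.0.16 quasi-likelihood test in R 4.3.3, with 1 coefficient per age over all 9 libraries and Benjamini-Hochberg adjustment over 16067 genes at 0.05. DESeq2 1.42.0 and limma-voom (limma 3.58.1) were alternatives, and the scripts were tested on simulated data. Errors beside log2 fold changes are SE. The total counts of 16536160 to 24791943 set a floor of 0.121 to 0.181 CPM before TMM scaling for 3 counts, which covers counting error only.

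The members and lists were chosen with earlier results of these data known. Values in every library are given for members that edgeR called with all libraries (0), for the most abundant and the most changed member of each role group, and for members with 1 library far apart, which made 20 of the 45. Aldh1a3, Inpp4b, Fkbp5 and the others given in detail were added after their values were seen, and the remaining members are given by range. Some genes of the pathway are not reported here.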

Additional observations from a re-analysis of the deposited data

How the results depend on the processing

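The log2 fold change of Iqgap2 at 21 against 3 months was -0.52 without 21-month replicate 1, where it was called with the opposite sign, and at most 0.29 with another library left out. Its sign also turned with limma-voom, the replicate block and replicate 3 alone, and over all 20 alternatives it ran from -0.55 to 0.75. The cause was not tested. DESeq2 called 211, 1503 and 428 genes at 13 against 3, 21 against 3 and 21 against 13 months, with 12 and 3 members in the latter pair. limma-voom called 154 and 3 genes in the latter pair. Library totals alone called 5560 and 815 genes there, with 24 and 8 members and member medians of 0.75 and 0.67. With library totals alone 98.2% of calls at 21 against 3 months were higher, against 62.2% with TMM, and at 13 against 3 months 25.5% against 9.59%. At least 10 counts in all 9 libraries left 33 and 69 genes called at 13 against 3 and 21 against 3 months, where fewer genes were tested. No filter on low counts left 29770 genes tested. It gave 728 genes (2.45%) and 5 members (Maf, Zbtb16, Aldh1a3, Inpp4b and Herc3) at 21 against 3 months. At 21 against 13 months it gave 5 genes. The 6 libraries of the ages compared gave 235, 112 and 0 genes. At 21 against 3 months 1 member, Inpp4b, was called there, beside 0.719% of all tested genes. With 21-month replicate 3 alone 229 genes were called at 13 against 3 months and 57 at 21 against 3. A replicate block gave 45 genes at 13 against 3 months, 442 at 21 against 3 and 3 at 21 against 13. Its 1 called member was Aldh1a3, at 21 against 3 months, beside 2.75% of all tested genes. Same-numbered libraries deviated together with correlations of -0.17 to 0.21, so the numbers were not taken as pairs.

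Leaving out 1 library gave 1 to 150 genes at 13 against 3 months, 0 to 2348 at 21 against 3 and 0 to 1246 at 21 against 13. Members called ran from 0 to 0, 0 to 14 and 0 to 7, the highest without 21-month replicate 3. Member medians ran from -0.017 to 0.037, 0.037 to 0.26 and -0.010 to 0.19. Over all members, comparisons and alternatives, 2480 values kept direction and call, 78 gained a call, 137 uncalled ones changed sign and 1, of Iqgap2, did both. Depth limits Elovl7, Aldh1a3 and Slc45a3 most, whose counts are low in the younger libraries.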
